A study of Mus musculus with 14 samples.

Results

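The genes described here are 10 components of Toll-like receptor sensing, chosen by symbol from the 55335 genes of the deposited matrices. They are the receptors Tlr1, Tlr2, Tlr3, Tlr4, Tlr7, Tlr9 and Tlr13, the surface partners Cd14 and Ly86, and the adaptor Myd88. All 10 were found, and all 10 passed the filter on low counts in microglia, where 16389 genes were tested. The data are single-cell RNA counts from the whole spinal cord, in 14 libraries of 4 groups. All mice were taken at P115-120, an age in days after birth. SOD1 (n = 3) carried the human SOD1*G93A transgene of the strain B6SJL-Tg(SOD1*G93A)1Gur/J, a model of amyotrophic lateral sclerosis (ALS). Clec7aKO (n = 4) was the strain B6.129S6-Clec7atm1Gdb/J, which lacks the myeloid receptor Clec7a. SOD1_Clec7aKO (n = 4) is labelled as carrying both. The control animals (n = 3) are labelled nTg only, with no strain named. The named strains of SOD1 and Clec7aKO thus differ in background as well as in the 2 alleles, and the background of nTg is not known. The alleles' effects and those of the background cannot be told apart. The labels do not say whether a library is 1 animal, so the p-values measure the spread between libraries. The title of the study names microglial neuroinflammation and phagocytosis in relation to Clec7a.

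Toll-like receptors are innate immune receptors that recognise conserved microbial molecules and some products of damaged cells. Tlr1, Tlr2 and Tlr4 act at the cell surface, where Tlr2 pairs with Tlr1 to bind lipopeptides and Tlr4 binds lipopolysaccharide, while Tlr3, Tlr7, Tlr9 and Tlr13 read nucleic acids in endosomes. Cd14 hands lipopolysaccharide and other ligands to the receptors, Ly86 (MD-1) is the partner of the Tlr4 relative Cd180, and Myd88 couples all of these receptors except Tlr3 to NF-kB. In the central nervous system microglia, the resident macrophages, are the best known users of this pathway.

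By the GENCODE vM21 annotation of GRCm38 all 10 are protein-coding genes. The surface receptors are Tlr1 at chr5:64924679-64933563, Tlr2 at chr3:83836272-83841767 and Tlr4 at chr4:66827584-66930284. The endosomal ones are Tlr3 at chr8:45395665-45411080, Tlr9 at chr9:106222598-106226883 and, on the X chromosome, Tlr7 at chrX:167304929-167330558 and Tlr13 at chrX:106143204-106160493. Ly86 lies at chr13:37345208-37419036 and Myd88 at chr9:119335934-119341411. Of the genes that changed in SOD1 microglia, 4 are shown here by the 300 bases around their start in the RefSeq promoter table (build GRCm38.p6), because 2 of them were higher (Tlr2, Tlr1) and 2 lower (Tlr3, Myd88). Each run is written 5′ to 3′ on the gene's own strand, here the minus strand, with 250 bases before the RefSeq start and 50 after it. Capitals mark matches on either strand to the NF-kB motif, to an interferon response motif (named ISRE here), or to the PU.1 motif GAGGAAGT.
Tlr2: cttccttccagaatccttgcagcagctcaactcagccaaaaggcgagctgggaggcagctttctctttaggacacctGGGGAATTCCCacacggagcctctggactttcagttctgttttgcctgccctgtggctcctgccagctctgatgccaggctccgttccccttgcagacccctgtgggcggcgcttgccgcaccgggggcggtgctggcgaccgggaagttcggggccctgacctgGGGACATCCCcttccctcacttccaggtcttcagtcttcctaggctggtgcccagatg
Tlr1: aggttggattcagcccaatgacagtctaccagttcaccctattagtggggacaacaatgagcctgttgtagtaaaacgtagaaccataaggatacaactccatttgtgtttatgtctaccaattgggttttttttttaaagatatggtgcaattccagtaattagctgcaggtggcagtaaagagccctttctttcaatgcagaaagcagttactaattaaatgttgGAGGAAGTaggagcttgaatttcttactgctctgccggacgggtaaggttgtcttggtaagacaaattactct
Tlr3: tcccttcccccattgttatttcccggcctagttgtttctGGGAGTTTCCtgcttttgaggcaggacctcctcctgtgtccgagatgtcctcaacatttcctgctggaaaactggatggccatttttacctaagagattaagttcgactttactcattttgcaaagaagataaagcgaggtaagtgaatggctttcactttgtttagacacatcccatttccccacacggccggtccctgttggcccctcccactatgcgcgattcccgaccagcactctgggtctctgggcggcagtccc
Myd88: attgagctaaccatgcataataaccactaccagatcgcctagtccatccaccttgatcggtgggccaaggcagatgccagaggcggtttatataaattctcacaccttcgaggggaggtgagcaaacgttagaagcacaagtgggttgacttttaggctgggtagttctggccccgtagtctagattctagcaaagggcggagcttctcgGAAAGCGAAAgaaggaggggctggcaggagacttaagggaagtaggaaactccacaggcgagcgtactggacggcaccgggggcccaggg

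The Tlr2 window (chr3:83841559-83841858) held 3 NF-kB matches, 2 of which overlap at bases 78 to 88, with the other at bases 243 to 252. The Tlr1 window (chr5:64933509-64933808) held 1 PU.1 match, the Tlr3 window (chr8:45410331-45410630) 1 NF-kB match at bases 40 to 49, and the Myd88 window (chr9:119339969-119340268) 1 match to the interferon response motif. NF-kB matches thus stood in a gene that was higher and in one that was lower. Of the 32851 promoters in the table, 8.46% held an NF-kB match, 3.44% an ISRE match and 3.20% a GAGGAAGT match. The RefSeq start of Myd88 lies 1393 bases inside the GENCODE gene and that of Tlr3 700 bases, so these 2 windows do not hold the GENCODE start. These matches are letters in a window, with no binding measured. Of the 10 genes, 7 are in the table. Tlr4, Tlr7 and Cd14 are not shown.

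The libraries held 28819852 to 141204910 UMIs (unique molecular identifiers, each standing for 1 captured RNA molecule), and 89225 of 108892 barcodes were kept as cells. Clec7a stood at 666 to 716 CPM (the gene's share of all UMIs, scaled to a common total) over all barcodes in SOD1 and 12.9 to 28.4 in nTg, against 0.654 to 1.48 in Clec7aKO and 1.61 to 2.57 in SOD1_Clec7aKO, which goes with the labels. Any pair of libraries shared at most 44 barcodes. More Xist than Ddx3y, a mark of female tissue, was found in 2 nTg, 1 Clec7aKO and 1 SOD1_Clec7aKO library and in 0 SOD1 libraries. The cells fell into 30 clusters, of which 11 (49500 cells) carried microglial markers and are called microglia below. All 12 microglial markers were detected there, and their summed level was 29115 to 32330 CPM in nTg and 29990 to 38080 in SOD1. Single markers moved both ways within that sum. In SOD1 against nTg the log2 fold change was -2.04 for P2ry12 and -1.70 for Tmem119, but 1.35 for Trem2 and 1.25 for C1qa. Of 7 of these markers, used as reference genes below, 3 were called higher and 2 lower by edgeR. Microglia numbered 943 to 2382 per library in nTg and 3954 to 6038 in SOD1, with 10512154 to 25310480 and 58286652 to 98320391 UMIs.

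Microglia of SOD1 cords differed from those of nTg cords at 6 of the 10 genes, in both directions. Tlr2, Cd14 and Tlr1 were higher, and Tlr3, Tlr4 and Myd88 were lower, each at an adjusted p under 0.05 in edgeR's quasi-likelihood test over all genes. The background was large: 33.3% of the 16389 genes passed in this comparison, 20% upward and 13.3% downward. For 6 of 10 members no SOD1 library lay within the nTg range, against 54.3% of all genes. The members' median log2 fold change was 0.19, beside 0.01 over all genes. Microglial values are CPM scaled by TMM factors, which set the bulk of genes to no change. Without these factors, on total UMIs alone, the median gene shifted by -0.44 and the calls split into 1535 higher and 5767 lower genes, in place of 3279 and 2182. In SOD1_Clec7aKO against Clec7aKO, the shift was -0.51 and the split 1887 and 7649 in place of 4179 and 3417. The members' changes below are thus relative to the bulk of genes in these cells.

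**Figure D1:**
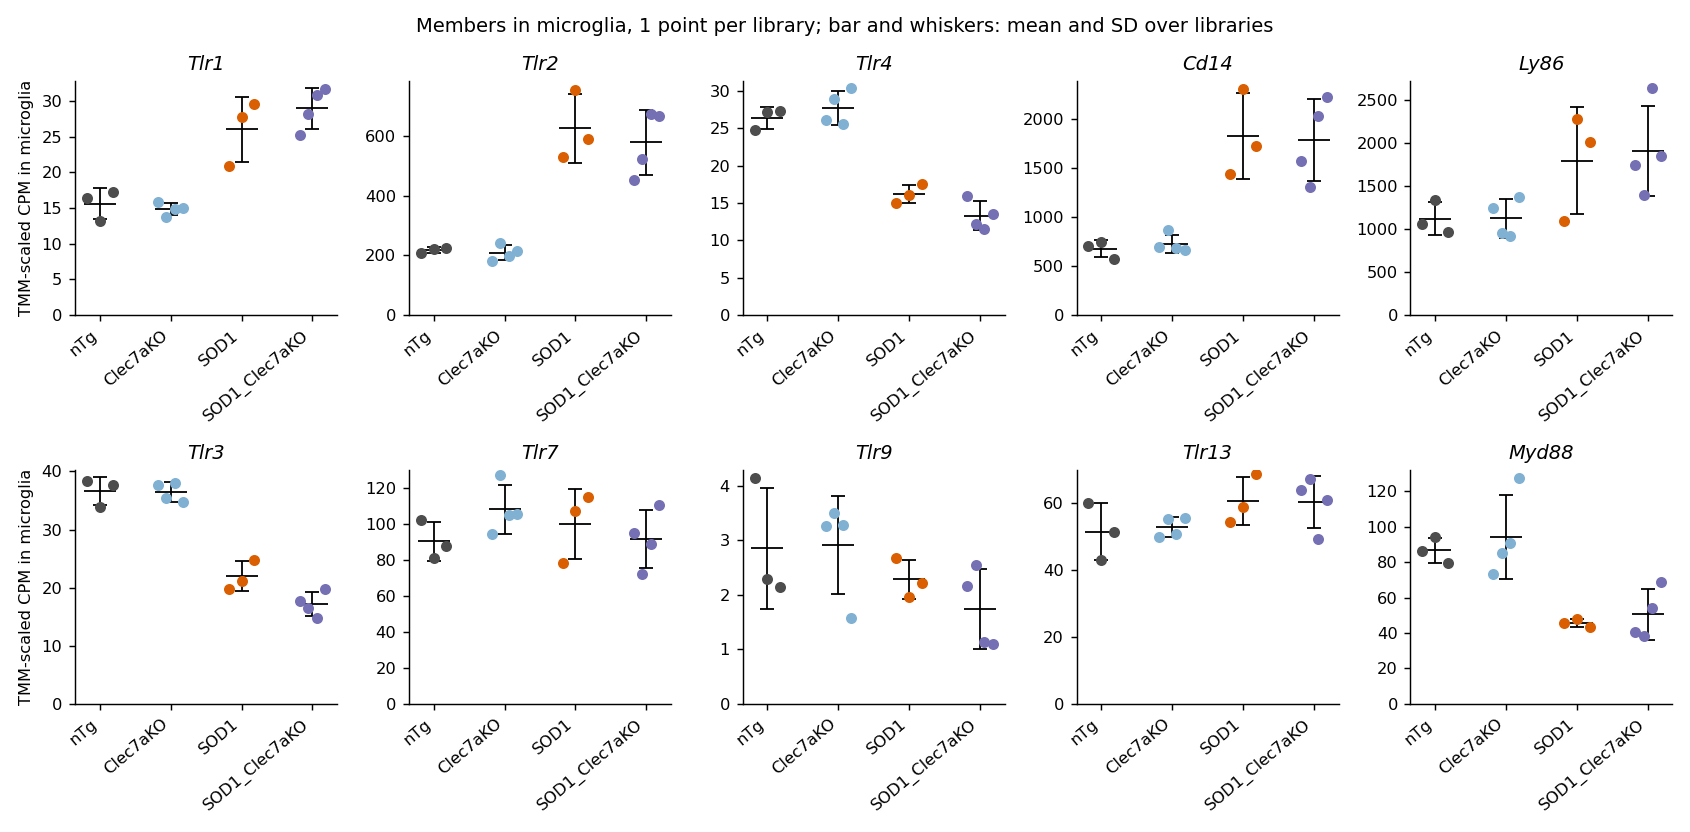
TMM-scaled CPM (y axis, from 0) of the 10 members in microglia, 1 panel per gene, 1 point per library, with mean and SD over the libraries of each group (x axis). Tlr2 and Cd14 stand higher and Tlr3, Tlr4 and Myd88 lower in every SOD1 and SOD1_Clec7aKO library than in any nTg or Clec7aKO library.

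Among the surface receptors, Tlr2 was at 207, 222 and 223 CPM in the nTg libraries and 529, 755 and 590.1 in the SOD1 libraries. The SOD1 values all exceeded the nTg values, and the log2 fold change was 1.52 ± 0.19 (SE), with an edgeR adjusted p of 4.27e-05. Cd14, the co-receptor, was at 703, 739.9 and 575 CPM in nTg and 1439, 2296 and 1725 in SOD1. The lowest SOD1 library was again above the highest nTg library, with a log2 fold change of 1.44 ± 0.23 (SE) and an edgeR adjusted p of 3.37e-04. Tlr1, which pairs with Tlr2, was at 16.4, 13.1 and 17.3 CPM in nTg and 20.9, 27.8 and 29.6 in SOD1. Its groups did not overlap either, and it was higher by 0.74 ± 0.16 (SE) on the log2 scale (edgeR adjusted p = 0.0023). On total UMIs alone Tlr1 stood at only 0.29 and did not pass (edgeR adjusted p = 0.13), whereas Tlr2 (1.07) and Cd14 (0.98) did.

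Tlr4 moved the other way from its co-receptor Cd14. Its nTg libraries were at 24.7, 27.2 and 27.4 CPM and its SOD1 libraries at 15.1, 16.03 and 17.5. All SOD1 values lay below all nTg values, with a log2 fold change of -0.70 ± 0.14 (SE) and an edgeR adjusted p of 0.0015. Ly86 spread widely within SOD1, at 1088, 2271 and 2014 CPM, against 1061, 1336 and 965 in nTg. The groups overlapped through SOD1 replicate 1, and the log2 fold change of 0.68 ± 0.29 (SE) did not pass (edgeR adjusted p = 0.084). Without SOD1 replicate 1 it was 0.88 and passed (edgeR adjusted p = 0.025). It also passed with the library number as a covariate (0.86), while on total UMIs alone it was 0.22. The library numbers are 1, 5 and 6 in SOD1 and 8, 9 and 12 in nTg, so they do not overlap between the 2 groups. No libraries of like number could thus be compared, which limits that alternative.

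Of the endosomal receptors, Tlr3, the sensor of double-stranded RNA, was at 38.4, 34.0 and 37.7 CPM in nTg and 19.8, 21.2 and 24.8 in SOD1. The groups were well separated, with a log2 fold change of -0.74 ± 0.13 (SE) and an edgeR adjusted p of 6.68e-04. Tlr7 and Tlr13, sensors of single-stranded and bacterial ribosomal RNA, overlapped between groups, at 81.4 to 102 against 78.3 to 115.1 CPM and 43.0 to 60.1 against 54.5 to 68.8 CPM. Their log2 fold changes were 0.15 ± 0.18 (SE) and 0.24 ± 0.15 (SE) (edgeR adjusted p = 0.56 and 0.25). On total UMIs alone they turned to -0.31 and -0.21, so no direction was taken from them. Both genes are on the X chromosome, and 2 nTg but 0 SOD1 libraries had more Xist than Ddx3y. Sex is thus partly confounded with the transgene in this comparison. With sex as a covariate neither gene passed or changed sign. Tlr9, the sensor of CpG DNA, was low, at 2.13 to 4.13 CPM in nTg and 1.97 to 2.67 in SOD1, where 3 UMIs correspond to between 0.0357 and 0.237 CPM over these libraries. Its log2 fold change was -0.35 ± 0.37 (SE) (edgeR adjusted p = 0.50). Among the alternatives run it passed, at -0.85, only with the library number as a covariate, which has the limit given above.

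Myd88, the shared adaptor, was at 86.3, 94.1 and 79.8 CPM in nTg and 45.9, 47.7 and 43.1 in SOD1, with no overlap. The level was lower, at -0.93 ± 0.22 (SE) on the log2 scale, with an edgeR adjusted p of 0.0056. Genes induced by the warm dissociation of tissue moved with it: the 22 genes of a stress list summed to 44792 to 54818 CPM in nTg microglia and 21400 to 23235 in SOD1 microglia (without TMM factors), and 9 of the 22 were called lower and 1 higher. Their part in the lower Myd88 level was not tested. Marker lists of other cell types also moved with the transgene in the microglial sums. No cluster was named B cells, so the B cell markers among them need not stand for B cells. The 8 border macrophage markers, of which 1 was at 0 in every nTg library, summed to 2.25 to 2.47 CPM in nTg and 45.7 to 88.2 in SOD1. The 9 astrocyte markers summed to 200.3 to 283 CPM in nTg and 112 to 177 in SOD1, the 8 of oligodendrocytes to 133 to 146 CPM in nTg and 66.8 to 107 in SOD1, the 10 of neurons to 17.0 to 26.1 CPM in nTg and 4.55 to 9.21 in SOD1 and the 6 of B cells to 174 to 182 CPM in nTg and 69.3 to 114 in SOD1. Markers of mural and ependymal cells were lower, and those of endothelial cells, oligodendrocyte precursors and T and NK cells higher, without overlap as well. All these sums are on total UMIs, where the median gene shifted by -0.44, while the members' values are TMM-scaled. Their overlap on the members' scale is not given here. Cells that held a UMI of another type were then left out, by the genes Mrc1, Pf4, Cd163, Cd3e, Cldn5, Mbp and Aqp4. None of these marks neurons, B cells, mural or ependymal cells or oligodendrocyte precursors, so RNA of those types was not removed. In the remaining 28166 of 49500 microglia Tlr3 (-0.70), Tlr4 (-0.74) and Myd88 (-0.88) passed as lower. Without the cluster led by Gpnmb, which also has the macrophage gene Ms4a7 among its leading genes, 6 of 10 members were called, as with it.

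The transgene was also compared within the Clec7a-deficient background, with a separate set of 8 libraries. There 7 of 10 members passed, 4 higher and 3 lower, where 46.3% of all genes passed (25.5% higher and 20.8% lower) and 36.4% did not overlap. Tlr2 was at 182, 239.9, 198 and 215 CPM in Clec7aKO and 453, 521, 673 and 665 in SOD1_Clec7aKO, a log2 fold change of 1.47 ± 0.17 (SE) with an edgeR adjusted p of 8.42e-06. Cd14 was at 695, 863, 683 and 662 CPM in Clec7aKO and 1567, 1305, 2029 and 2215 in SOD1_Clec7aKO, a log2 fold change of 1.29 ± 0.20 (SE). Both genes thus rose without overlap, as did Tlr1, at 13.8 to 15.9 against 25.3 to 31.7 CPM (0.96 ± 0.14 (SE)), on either scaling. Ly86 lay at 921 to 1376 CPM in Clec7aKO and 1391 to 2631 in SOD1_Clec7aKO, and rose by 0.76 ± 0.25 (SE) on the log2 scale (edgeR adjusted p = 0.022). That call was lost without SOD1_Clec7aKO replicate 3 (0.50), without Clec7aKO replicate 2 (0.69) or 3 (0.68), and on total UMIs alone (0.25).

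Tlr3 was at 37.7, 35.3, 38.1 and 34.8 CPM in Clec7aKO and 17.7, 16.4, 14.8 and 19.7 in SOD1_Clec7aKO, a log2 fold change of -1.09 ± 0.11 (SE). Tlr4 was at 26.2, 28.9, 25.5 and 30.4 CPM in Clec7aKO and 15.98, 12.2, 11.5 and 13.5 in SOD1_Clec7aKO, a log2 fold change of -1.06 ± 0.12 (SE). In both genes every SOD1_Clec7aKO library lay below every Clec7aKO library (edgeR adjusted p = 4.82e-06 and 1.04e-05). Myd88 was at 73.4, 85.1, 90.9 and 128 CPM in Clec7aKO and 40.4, 38.3, 54.4 and 69.1 in SOD1_Clec7aKO, and its log2 fold change was -0.90 ± 0.19 (SE) (edgeR adjusted p = 0.0018). Here the gap was narrow, between SOD1_Clec7aKO replicate 4 and Clec7aKO replicate 1. The stress list, with 13 genes called lower and 1 higher, stood at 47009 to 58479 CPM in Clec7aKO and 18792.5 to 24414 in SOD1_Clec7aKO. The border macrophage markers summed to 2.02 to 4.57 CPM in Clec7aKO and 62.8 to 94.2 in SOD1_Clec7aKO, those of astrocytes to 182 to 400.5 CPM in Clec7aKO and 74.2 to 163 in SOD1_Clec7aKO and those of neurons to 18.5 to 36.5 CPM in Clec7aKO and 3.49 to 8.56 in SOD1_Clec7aKO. Markers of oligodendrocytes, mural cells and B cells were lower without overlap too. The stress list and marker sums are on total UMIs here as well, where the median gene shifted by -0.51. Tlr7 (-0.24), Tlr13 (0.19) and Tlr9 (-0.73) did not pass (edgeR adjusted p = 0.23, 0.24 and 0.079). On total UMIs alone Tlr7 (-0.75) and Tlr9 (-1.24) passed as lower and Tlr13 turned to -0.31. Tlr9 also passed as lower with DESeq2 (-0.78), with the replicate block (-0.75), with the library number (-0.88), and without SOD1_Clec7aKO replicate 2 (-1.03) or Clec7aKO replicate 4 (-0.92).

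**Figure D2:**
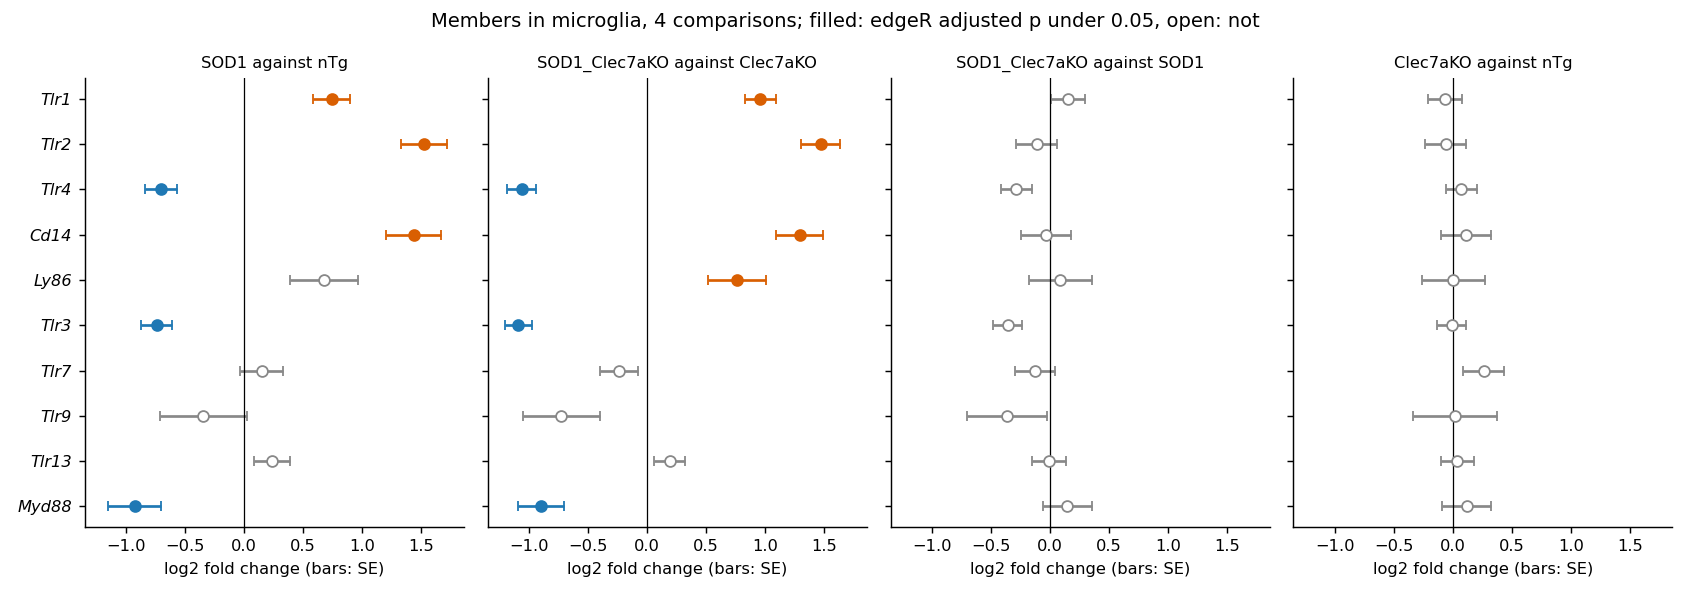
Log2 fold changes of the 10 members in microglia (x axis, bars are SE) in the 4 comparisons, with filled points for an edgeR adjusted p under 0.05. The 2 comparisons of the transgene show 6 and 7 filled points, and the 2 comparisons of the Clec7a allele show none.

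The loss of Clec7a itself was set against both backgrounds. In SOD1_Clec7aKO against SOD1, 0 of 10 members passed edgeR's adjusted threshold, where 0.0183% of all genes (3 genes) did. At an unadjusted p under 0.05 there were 2 members, Tlr3 (-0.36 ± 0.12 (SE), unadjusted p = 0.0105, edgeR adjusted p = 0.43) and Tlr4 (-0.28 ± 0.13 (SE), unadjusted p = 0.0437), among 11.5% of all genes. The libraries did not overlap for Tlr3, nor for 9.26% of all genes. The other 8 members lay between -0.36 (Tlr9) and 0.15 (Tlr1) on the log2 scale, with Tlr2 at -0.11 ± 0.17 (SE), Cd14 at -0.03 ± 0.21 (SE) and Myd88 at 0.15 ± 0.21 (SE). In Clec7aKO against nTg, 0 of 10 passed (0.0305% of all genes did), and 0 members were at an unadjusted p under 0.05, beside 2.56% of all genes. Their log2 fold changes lay between -0.07 (Tlr1) and 0.26 (Tlr7), with SEs from 0.12 to 0.35. DESeq2 called 0 members in either comparison too. A test of whether the transgene's effect differed with and without Clec7a called 0 of 10 members and 0 of all genes by edgeR, with 0 members and 340 genes (2.07%) at an unadjusted p under 0.05, and 0 members by DESeq2. The SEs of these differences were 0.17 for Tlr3, where the estimate was -0.35, and 0.25 for Tlr2, where it was -0.05.

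At a fixed depth of 2000 UMIs per cell, which left out 1010 of the 49500 microglia, Tlr2 had a UMI in 35.6% of nTg microglia and 57.4% of SOD1 microglia. Before thinning the shares were 75.5% and 90.5%, at median depths of 9245.5 and 14375 UMIs. Endothelial cells, where Tlr2 lay near the level of free microglial RNA, had it in 0.560% and 2.54% at the fixed depth, from median depths of 7839.5 and 5765 UMIs. Cd14 went from 68.2% to 81.8% at the fixed depth (unthinned 94.4% and 95.7%), and Myd88 from 18.9% to 8.36% (unthinned 56.6% and 42.6%). Tlr3 and Tlr4 were found in few cells at this depth, 8.54% and 6.63% in nTg against 4.08% and 3.12% in SOD1 (unthinned 31.8% and 25.1% against 23.3% and 19.4%). Endothelial cells had Cd14 in 1.47% of nTg and 4.50% of SOD1 cells at the fixed depth. These are shares of cells pooled over libraries and carry no test. The thinned shares thus lay in the direction of the CPM for all 5 genes.

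The microglial clusters differed in their members' levels, given here as CPM of summed UMIs without TMM factors, as mean ± SD over libraries with at least 20 cells. The clusters were made from the same cells, although none of the 10 genes was among the 2000 used to build them, so these levels are a description. Clusters 8, 12 and 20, with the resting microglial genes Crybb1 and P2ry12 among their leading genes, held means of 24.5%, 19.7% and 50.1% of the microglia of a nTg library, with wide ranges of 10.8 to 49.5%, 5.54 to 43.9% and 1.61 to 76.4% over the 3 libraries. Tlr2 was at 273 ± 59.5 in cluster 8, 248.9 ± 76.0 in cluster 12 and 323 ± 165 in cluster 20. The SD of cluster 20 rests on 1 SOD1_Clec7aKO library of 42 cells at 618, beside 248.8 to 260.3 in the 3 nTg libraries and 234 in 1 Clec7aKO library. Clusters led by Igf1 (cluster 0) and Il23a (cluster 1), which held 16.1% and 15.3% of SOD1 microglia but 0.289% and 0.282% of nTg microglia, had Tlr2 at 579.6 ± 50.4 and 577 ± 80.2. In the clusters led by Ifit2 (cluster 4) and Gpnmb (cluster 5), which held 3.12% and 8.78% of SOD1 and 0.448% and 0.113% of nTg microglia, Tlr2 was at 367 ± 85.5 and 328 ± 25.2. Cd14 was at 2288 ± 256 in cluster 1 and 654 ± 121 in cluster 12. Tlr4 ran the other way, from 40.3 ± 9.68 in cluster 12 to 8.87 ± 2.18 in cluster 1. Cluster 1 thus had the highest mean Cd14 and the lowest mean Tlr4 of the 11.

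Tlr3 had its highest mean, 69.5 ± 32.0 CPM, in cluster 4, led by the interferon-induced genes Ifit2 and Ifit3, and means of 10.6 to 47.1 in the other 10. Cluster 3, led by Ifnb1 and Cxcl10, was at 26.9 ± 7.15. Myd88 went from 24.2 ± 2.32 in the cluster led by Gpnmb to 104 ± 17.0 in cluster 20, led by Xist and Tsix, whose cells come mainly from the libraries with Xist. Tlr1 means lay between 14.3 and 26.2, Ly86 between 1011 and 1949, Tlr7 between 68.5 and 114.8, Tlr13 between 42.0 and 70.9, and Tlr9 between 1.18 and 3.48. The ratio of the highest to the lowest cluster mean was thus largest for Tlr3, Tlr4 and Myd88 and smallest for Tlr7 and Tlr13. The clusters hold different shares of each group, so their levels also carry the difference between groups.

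**Figure D3:**
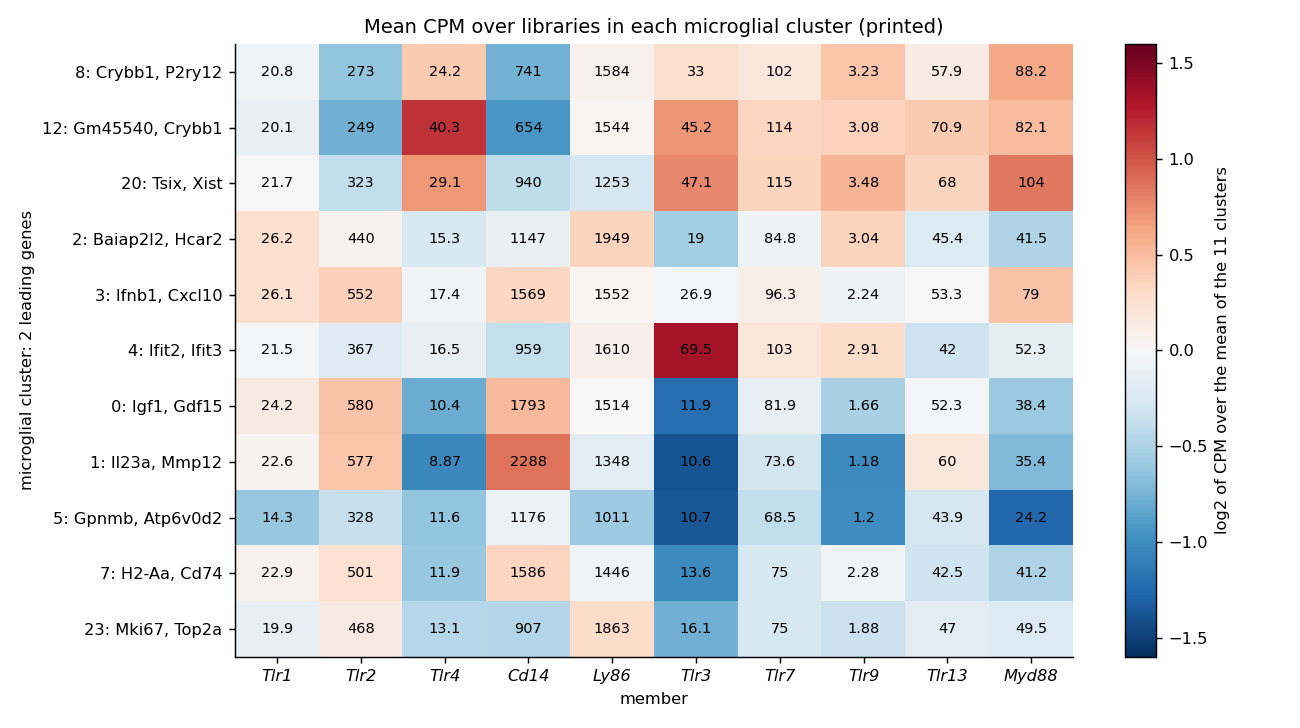
Mean CPM over libraries (printed) of each member (columns) in the 11 microglial clusters (rows, with 2 leading genes), coloured by log2 of the level over the mean of the clusters. Tlr3 is highest in the Ifit2 cluster at 69.5, Tlr4 in cluster 12 at 40.3 and Cd14 in the Il23a cluster at 2288.

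Cluster 8 was present in all 14 libraries, so the groups could be set side by side in it. Tlr2 stood at 192 to 266 CPM in nTg and 191 to 276 in Clec7aKO, against 316 to 340.1 in SOD1 and 274 to 362 in SOD1_Clec7aKO. The SOD1 libraries were above the nTg libraries there, while SOD1_Clec7aKO and Clec7aKO overlapped. Clusters 3 and 12 also had at least 20 cells in each SOD1 and nTg library, and Tlr2 was higher without overlap in them too, at 473 to 526 in nTg and 578 to 718 in SOD1 in cluster 3 and 165 to 224 and 273 to 344 in cluster 12. Cd14 overlapped in each of these 3 clusters, at 525 to 893 in nTg and 616 to 711 in SOD1 in cluster 8, 1465 to 1970.1 and 1310.2 to 1964 in cluster 3, and 459.8 to 766 and 509 to 872 in cluster 12.

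Myd88 was lower without overlap in clusters 8 and 3, at 85.4 to 118 in nTg and 59.9 to 70.1 in SOD1 and at 93.8 to 130.2 and 49.6 to 56.0, and overlapped in cluster 12, at 63.0 to 108 and 63.6 to 74.3. Tlr3 and Tlr4 were lower without overlap in cluster 8 alone of the 3. Cluster 3 had only 33 to 63 cells per nTg library and cluster 12 39 to 142 per SOD1 library. Overlap there thus does not show the absence of a difference for these low genes. Tlr3 was there at 36.3 to 42.2 in nTg and 29.9 to 32.4 in SOD1, and overlapped in cluster 3, at 28.2 to 36.7 and 22.996 to 28.3, and in cluster 12, at 46.7 to 64.8 and 28.3 to 51.1. Tlr4 was at 25.7 to 33.8 and 20.5 to 24.1 in cluster 8, at 14.3 to 23.5 and 15.4 to 19.3 in cluster 3 and at 36.8 to 42.6 and 30.9 to 51.8 in cluster 12. In the Clec7a-deficient groups, cluster 3 had 3 Clec7aKO libraries with at least 20 cells (28, 169 and 134). Cluster 12 had 2 such SOD1_Clec7aKO libraries (148 and 20 cells), so the same limit holds. Myd88 was lower without overlap in cluster 8, at 98.5 to 146 in Clec7aKO and 44.0 to 71.0 in SOD1_Clec7aKO, and in cluster 3, at 94.9 to 125 and 40.1 to 69.1. The same held for Tlr3, at 33.5 to 41.6 and 17.7 to 27.5 in cluster 8 and 29.4 to 39.3 and 14.02 to 27.6 in cluster 3. Tlr4 did not overlap in cluster 3, at 22.5 to 28.8 and 9.97 to 16.9, but did in cluster 8, at 18.6 to 29.0 and 13.6 to 28.1. Tlr2 was higher without overlap in cluster 12, at 169.6 to 246 and 258 to 403, and overlapped in cluster 3, at 350.4 to 625 and 553 to 607. Cd14 overlapped in all 3 clusters, and Myd88, Tlr3 and Tlr4 overlapped in cluster 12. All of these are on the scale of total UMIs. Over all microglia the median gene shifted there by -0.44 in SOD1 against nTg and -0.51 in SOD1_Clec7aKO against Clec7aKO. Its shift within these clusters is not given here. A lower level in a cluster need thus not be lower relative to the bulk of genes. These comparisons within a cluster, with those of Tlr2 and Cd14 above, were not tested. The share of all genes without overlap within a cluster is not given here. Over all microglia it was 54.3% in SOD1 against nTg and 36.4% in SOD1_Clec7aKO against Clec7aKO. No result about the members was therefore taken from a lack of overlap within a cluster.

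Outside microglia, free RNA from broken cells can put microglial UMIs into any droplet. The level in each class was therefore set against 7 microglial reference genes (Cx3cr1, P2ry12, Trem2, C1qa, C1qb, Csf1r and Tmem119), as a percent of the microglial CPM in the same library. In astrocytes Tlr3 stood at 150.2 ± 33.0 CPM (SD, n = 14), against 29.8 ± 14.4 in microglia and 31.9 ± 4.61 in endothelial cells. Its astrocyte level was a median 544% of the microglial level, where the reference genes had 5.11%, and it lay above every reference gene in 14 of 14 libraries. The same held in 14 of 14 libraries for endothelial cells (122% against 1.56%) and oligodendrocyte precursors (26.7% against 1.38%). Astrocytes thus had the highest Tlr3 level of the named classes.

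Tlr4 was at 10.7 ± 3.53 CPM in mural cells (pericytes and smooth muscle) and 2.95 ± 0.907 in endothelial cells, against 22.2 ± 10.4 in microglia. Both classes were above all reference genes in 14 of 14 libraries, at 52.6% and 13.4% of the microglial level. Myd88 was at 45.5 ± 10.0 CPM in mural cells, 15.9 ± 2.27 in endothelial cells, 8.26 ± 2.72 in ependymal cells and 4.33 ± 1.68 in oligodendrocyte precursors, above all reference genes in 14 of 14 libraries in each. In ependymal cells Tlr4 was 0.753% of the microglial level where the reference genes had 1.32%, which cannot be told from free RNA. Both vessel classes thus stood above the level of free microglial RNA for Tlr4 and Myd88, as did endothelial cells for Tlr3. Free RNA of other cells, such as astrocytes, was not compared.

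**Figure D4:**
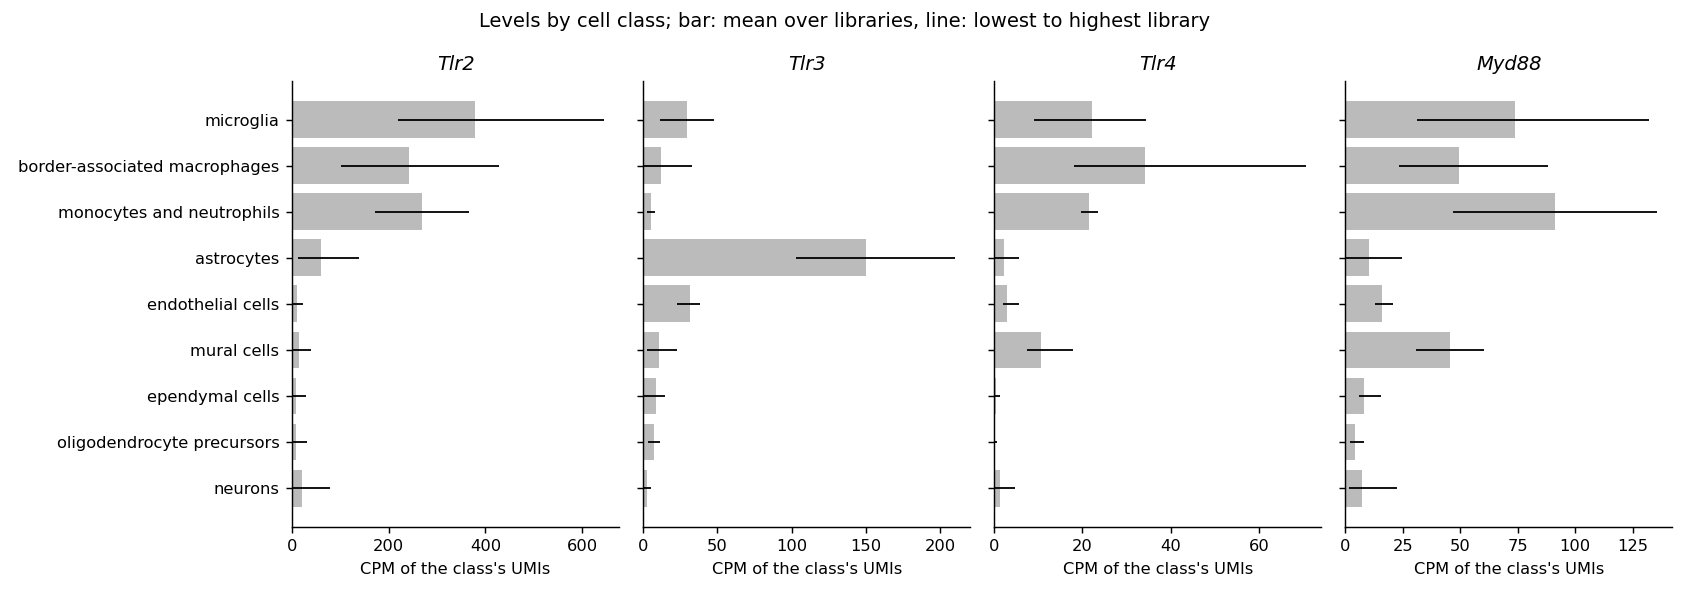
CPM of the summed UMIs of each cell class (x axis) for Tlr2, Tlr3, Tlr4 and Myd88, with the mean over libraries as bar and the lowest to highest library as line. The Tlr3 bar is longest in astrocytes at 150.2, and that of Tlr2 in microglia at 378.

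Among the other immune cells, border-associated macrophages (13 libraries with at least 20 cells) had Tlr4 at 34.1 ± 14.6 CPM, Tlr13 at 60.0 ± 16.3, Tlr7 at 87.8 ± 21.5 and Cd14 at 1139 ± 260.3. Their Ly86 level of 712 ± 233 was below the 1439 ± 320.3 of microglia, and Tlr3 was at 12.4 ± 9.01. The neutrophil genes Elane and Prtn3 and the immunoglobulin gene Igkc were also among the leading genes of that cluster. Its markers scored next highest for B cells. The part of RNA from such cells in these levels was not tested. These macrophages also use several of the reference genes themselves. Monocytes and neutrophils reached 20 cells in only 2 libraries, both of Clec7aKO. Cd14 was there at 1159.6 to 1756 CPM, Tlr2 at 172 to 367 and Tlr13 at 78.4 to 88.7. Ly86 there was at 44.3 to 141 CPM and Tlr7 at 7.84 to 14.8, below their levels in microglia. Tlr4 was at 19.7 to 23.5 CPM there, and in both libraries Cd14, Tlr2, Tlr4 and Tlr13 stood above every reference gene as a percent of the microglial level. In border-associated macrophages Tlr2 was at 242 ± 99.0 CPM. It stood above every reference gene in 6 of 13 libraries, Cd14 in 8, Tlr4 in 12 and Tlr13 in 12.

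**Figure D5:**
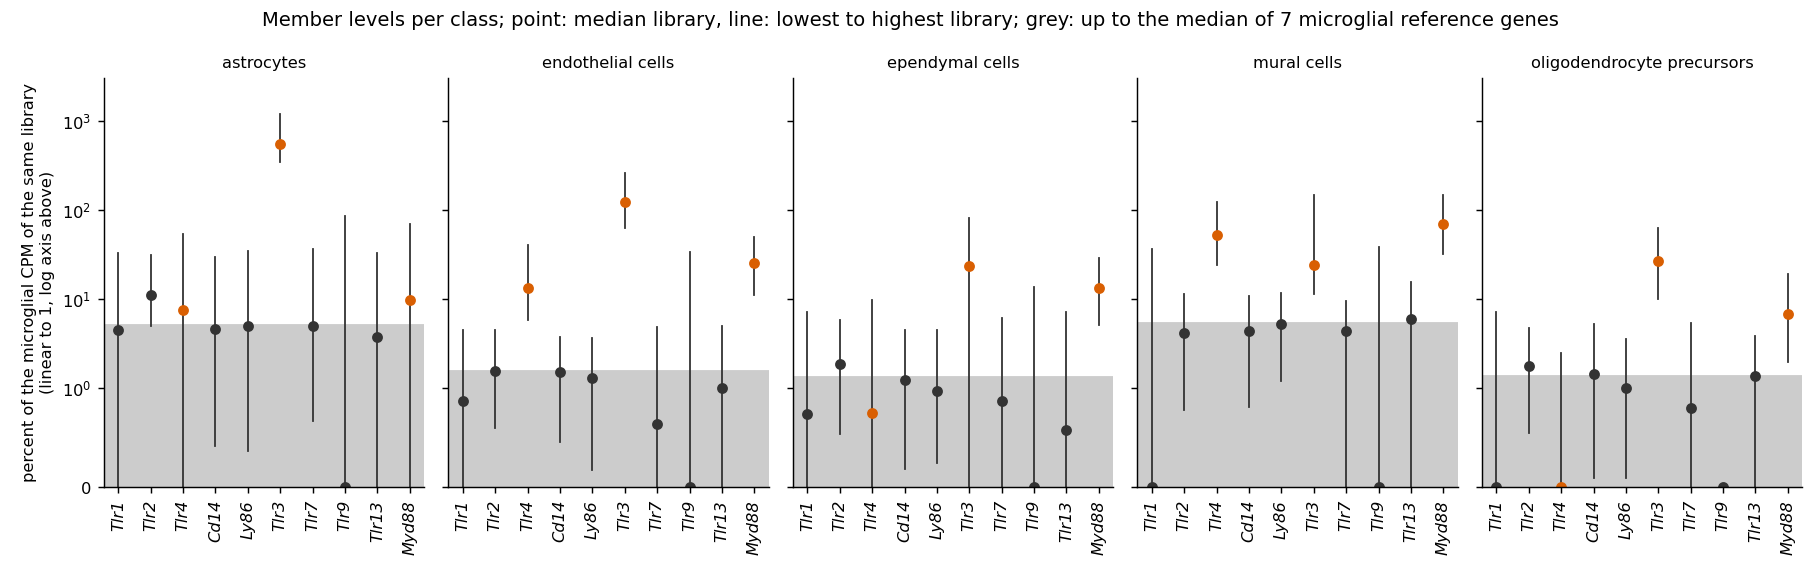
Level of each member (x axis) as a percent of its microglial CPM in the same library (y axis, linear up to 1 and log above) in 5 classes, with the median library as point and the lowest to highest library as line. Tlr3, Tlr4 and Myd88 are in orange. The points of Tlr3 and Myd88 stand above the grey band, which reaches up to the median of the 7 reference genes, in all 5 classes, and those of Ly86 within it.

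Tlr2, Cd14, Ly86, Tlr7, Tlr1 and Tlr13 lay near the reference genes in the non-myeloid classes: the Cd14 level of endothelial cells was 1.51% of the microglial level against 1.56% for the reference genes. In astrocytes Tlr2, at 11.1% against 5.11%, was above all 7 reference genes in 12 of 14 libraries. Over astrocytes, endothelial, ependymal and mural cells and oligodendrocyte precursors, SOD1 against nTg gave 15 calls of a member in a class, all 15 higher. On total UMIs alone there were 16, 15 higher and 1 lower (Tlr3 in astrocytes). Tlr2 and Cd14 were called in 4 classes each, Ly86 in 3, Tlr13 in 2, and Tlr7 and Myd88 in astrocytes. The share of all genes called higher was 18.5% in astrocytes, 1.19% in endothelial cells, 0.908% in ependymal cells, 1.28% in oligodendrocyte precursors and 0.106% in mural cells. SOD1_Clec7aKO against Clec7aKO gave 14 calls (7 without Clec7aKO replicate 3, 8 without SOD1_Clec7aKO replicate 1 or 2), 13 higher and 1 lower, where 31.4%, 0.994%, 1.29%, 3.81% and 0.145% of all genes were called in these classes. The microglial reference genes moved with these calls. In astrocytes they summed to 113 to 286 CPM in nTg libraries and 941 to 10064 in SOD1 libraries. In endothelial cells the sums were 54.7 to 110.2 and 481 to 1270.0. The part of free microglial RNA in these calls was not tested.

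Tlr3, Tlr4 and Myd88, whose endothelial levels were above the reference genes, were compared there too. Endothelial Tlr3 was at log2 0.10 ± 0.18 (SE), Myd88 at 0.07 ± 0.19 (SE) and Tlr4 at 0.41 ± 0.36 (SE), and none passed (edgeR adjusted p = 1.00, 1.00 and 1.00). Mural Myd88 was at 0.19 ± 0.30 (SE) and did not pass either. Astrocyte Tlr3 was at 172 to 209.9 CPM in nTg, 127 to 155 in SOD1, 142 to 194 in Clec7aKO and 103 to 138 in SOD1_Clec7aKO, on total UMIs. With TMM factors, which the test uses, the Clec7aKO and SOD1_Clec7aKO libraries overlapped. The log2 fold change was -0.41 ± 0.17 (SE) in SOD1 against nTg (edgeR adjusted p = 0.078, DESeq2 adjusted p = 0.046; on total UMIs alone -0.45, edgeR adjusted p = 0.048) and -0.48 ± 0.16 (SE) in SOD1_Clec7aKO against Clec7aKO, where it was the 1 lower call (edgeR adjusted p = 0.032). That call was lost without SOD1_Clec7aKO replicate 1, 2 or 4, without Clec7aKO replicate 2 or 3, and without the filter on low counts. Leaving out 1 library gave values from -0.58 to -0.37. The reference genes summed to 318 to 1560.1 CPM in Clec7aKO astrocytes and 1969 to 9376 in SOD1_Clec7aKO astrocytes, and the part of microglial RNA in this call was not tested.

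The rest of the pathway was read from lists of its parts, in microglia of SOD1 against nTg. Of the 15 tested genes for cytokines and enzymes that these receptors induce, 9 were higher and 0 lower, with a median log2 fold change of 2.89 beside 0.01 over all genes. They included Cxcl1 (6.74) and Cxcl2 (2.97), which attract neutrophils, Acod1 (5.30), which makes itaconate, and Il12b (4.23), a subunit of interleukin 12. Cxcl1 was at 0.278 to 0.636 CPM in nTg libraries and 10.4 to 115.2 in SOD1 libraries, Cxcl2 at 99.0 to 299 and 822 to 1869, Acod1 at 1.23 to 3.43 and 23.1 to 156, and Il12b at 0 to 5.96 and 10.8 to 83.3. The SOD1 libraries thus spread widely, and without SOD1 replicate 2 the log2 fold change of Cxcl1 was 5.26. The Il12b call was lost without SOD1 replicate 2 (3.38) or nTg replicate 1 (3.81). Of the 16 adaptors and kinases downstream of the receptors, 1 was higher, Ticam2 (0.64), which serves Tlr4, and 2 lower, Tab2 (-0.53) and Chuk (-0.53), with 13 not called. The Ticam2 call was lost on total UMIs alone (0.19). That of Tab2 was lost without SOD1 replicate 1, 2 or 3, nTg replicate 1 or 3 or Clec7aKO replicate 1 (-0.61 to -0.43 over the libraries left out), and that of Chuk without SOD1 replicate 1 or 2 or nTg replicate 2 or 3 (-0.59 to -0.49). With sex as a covariate both calls were lost, at -0.49 and -0.37. That of Tab2 was also lost with no filter on low counts, without cells with a UMI of another type, without the Gpnmb-led cluster and with the shallow cluster. These counts are set against the 20% of all genes called higher and the 13.3% called lower. Of the 10 transcription factors 2 were higher, Irf7 (2.60) and Irf8 (0.66), the latter not on total UMIs alone (0.22), nor without SOD1 replicate 1 or 2, SOD1_Clec7aKO replicate 3 or any 1 nTg library (0.50 to 0.73 over the libraries left out). With sex (0.52) or the library number (0.40) as a covariate the Irf8 call was lost too. Of the 11 inhibitors 1 was higher, Lilrb4a (3.09), and of the 9 tested accessory proteins 2 were higher, the chaperone Hsp90b1 (0.88) and the scavenger receptor Cd36. Of the 4 other receptors tested, Tlr8 was higher and Tlr5 lower, at means of at most 1.03 and 1.73 CPM. Cd36, Tlr8 and Tlr5 are below the level set for naming and were named after their values were seen. The counts of the adaptors and kinases, factors, inhibitors and accessory proteins are thus near or below those of all genes. The medians were -0.04 for the adaptors and kinases, -0.09 for the transcription factors, 0.28 for the inhibitors and -0.07 for the accessory proteins.

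In SOD1_Clec7aKO against Clec7aKO the induced genes had 9 higher and 1 lower of 15, with Cxcl1 at 5.61 and Il12b at 4.16. The lower one was Ccl2 (-1.49), a monocyte attractant named after its value was seen. The adaptors and kinases had 1 higher and 4 lower of 16, near or below the 25.5% of all genes called higher and 20.8% called lower, among them Tab2 (-0.82), Chuk (-0.56) and Tirap (-0.45), the bridging adaptor of Tlr2 and Tlr4. The Tirap call was lost in 12 alternatives, and leaving out 1 library gave -0.59 to -0.32. Cd300lf, an inhibitory receptor of myeloid cells, stood out in Clec7aKO, at 1.64 to 2.75 CPM against 33.4 to 36.6 in nTg and 25.0 to 33.9 in SOD1_Clec7aKO. It was the 1 pathway gene called in Clec7aKO against nTg (-3.91, edgeR adjusted p = 1.34e-04). In SOD1_Clec7aKO against SOD1, the other comparison of the Clec7a allele, Cd300lf was not called. The low level was thus seen in Clec7aKO but not in SOD1_Clec7aKO, which is labelled as lacking Clec7a too. In SOD1_Clec7aKO against SOD1 the medians were -0.40 for the induced genes, -0.09 for the adaptors and kinases and -0.21 for the inhibitors, beside 0.01 over all genes. By edgeR 0 of the 15, 16 and 11 genes tested were called there, with 2, 1 and 2 at an unadjusted p under 0.05, so no direction was taken from these medians.

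The genes most like single members over the 14 microglial sums, by Pearson's r of log2(CPM + 1) among 7772 genes, were taken as a description. They share the libraries and their 2 levels of transgene. For Tlr2 they were Ch25h, Cs and Psmd14 (r from 0.98 to 0.99), for Cd14 Bcl2a1b, Eif3m and Smim14 (0.98), for Tlr3 Celf2, Dennd6a and Dock4 (0.97 to 0.98) and for Tlr4 Mtus1, Naa16 and Wdr37 (0.98). Myd88 was most like Ier5, Dusp8 and Tpst2 (0.98), of which Ier5 is an immediate early gene. Ly86 was most like BC028528, Abracl and Cnih4 (0.92 to 0.93). Tlr7 and Tlr13 reached at most 0.90 (Rab8b) and 0.90 (Rnf20). After the group means were taken out, r was 0.93 for Tlr7 with Rab8b and 0.93 for Tlr13 with Rnf20. It was 0.92 for Myd88 with Ier5, 0.89 for Cd14 with Bcl2a1b and 0.84 for Ly86 with BC028528. For Tlr2 with Ch25h it was 0.85, for Tlr3 with Celf2 0.76 and for Tlr4 with Mtus1 0.79. Each is with the gene of highest r before that step.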

How the data were processed

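Cells of whole spinal cord, taken by enzymatic dissociation and removal of myelin, were sequenced with 10x 3′ chemistry, per the labels' protocols. The submitters' processing notes name Cell Ranger, Seurat and mm10, and the matrix headers give software version 3.0.2. The deposited values are UMI counts per gene and barcode, not normalized, and whether counting used strand is not given in the sources used here.

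Barcodes with under 500 genes or 1000 UMIs (7127), over 15% mitochondrial UMIs (4963) or the highest Scrublet scores at a rate of 0.8% per 1000 barcodes (7577) were removed, leaving 89225. Cells were clustered with scanpy 1.11.5 (2000 variable genes, 30 components, Leiden resolution 1.0) and named by marker lists. Clusters 6, 17 and 26 stayed unnamed. UMIs were summed per library and class, with at least 20 cells. The sums were tested with edgeR 4.0.16 (R 4.3.3; TMM, filterByExpr, quasi-likelihood F test over all 14 libraries, Benjamini-Hochberg adjustment, threshold 0.05). The SE is the size of the log2 fold change over the square root of F. The test was tested on simulated data. DESeq2 1.42.0, RLE size factors, no filter, a replicate block, covariates, other cell choices and leaving out each library were alternatives. Leaving out the Gpnmb-led cluster, adding the shallow cluster and omitting TMM were chosen after seeing the data.

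The members and lists were chosen with earlier results of these data known. Pathway genes were named where the adjusted p was under 0.05 and a group mean at least 10 CPM, at most 4 per list by size of change. Like genes are the 3 with the highest r among genes of at least 10 CPM. Those of Tlr1 are not reported here. A floor is 3 UMIs and covers counting error only.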

Additional observations from a re-analysis of the deposited data

Results flagged for a closer look

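In 2 of the 20 group-wise series of microglial values examined, 1 library stood apart from the rest of its group by Dixon's criterion at the 95% level, which chance exceeds in about 1 of 20 groups. Only Clec7aKO and SOD1_Clec7aKO, with 4 libraries each, were examined. No library of nTg or SOD1 (n = 3 each) could thus be flagged. Cd14 was at 862.7 CPM in Clec7aKO replicate 2 and at 662 to 695 CPM in the other 3 libraries, a gap of 0.836 of the range. Tlr9 was at 1.57 CPM in Clec7aKO replicate 4 and at 3.27 to 3.50 CPM in the other 3, a gap of 0.88 of the range.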

How the results depend on the processing

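In microglia the count of members called stayed at 6 to 8 in SOD1 against nTg, apart from 5 on total UMIs alone, and at 6 to 8 in SOD1_Clec7aKO against Clec7aKO, over the alternatives run. It was 0 in both comparisons of the Clec7a allele and in the difference of the transgene's effects under each of them. The replicate numbers of the titles did not pair the libraries: same-numbered libraries correlated at -0.34 to 0.59 in their deviations from the group means, with both signs. With the replicate number as a block, 6 members were called in SOD1 against nTg and 8 in SOD1_Clec7aKO against Clec7aKO, where Tlr9 passed. In the other classes, dropping the filter on low counts gave 2 calls in SOD1_Clec7aKO against SOD1 and 7 in Clec7aKO against nTg, in place of 0. The share of all genes called without the filter in these classes is not given here. No result about the members was therefore taken from these calls. In SOD1_Clec7aKO against Clec7aKO, 14 calls became 7 to 18 with 1 library left out, namely 8 without SOD1_Clec7aKO replicate 1 or 2 and 7 without Clec7aKO replicate 3. The cause was not tested. Of 2462 values of 103 gene results under an alternative, 2252 kept direction and call, 130 lost the call, 12 gained it and 68 changed sign, of which 1 had been called (Spi1, on total UMIs alone). The log2 fold changes after a change of sign were as follows. In SOD1 against nTg it was for Tlr7 -0.31 (total UMIs). For Tlr13 there it was -0.21 (total UMIs). In SOD1_Clec7aKO against SOD1 it was for Tlr13 0.0132 (library number as covariate), 0.0001 (without cells with a UMI of another type). For Ly86 there it was -0.0666 (library number as covariate), -0.0352 (total UMIs). For Myd88 there it was -0.0447 (replicate block), -0.12 (library number as covariate). In Clec7aKO against nTg it was for Tlr1 0.0122 (sex as covariate). For Tlr3 there it was 0.0661 (sex as covariate), 0.063 (without cells with a UMI of another type), 0.0007 (with the shallow cluster). For Tlr9 there it was -0.0026 (no filter on low counts), -0.0604 (library number as covariate), -0.0333 (total UMIs), -0.0035 (only the 2 groups), -0.10 (without cells with a UMI of another type). For Tlr13 there it was -0.0323 (total UMIs). For Ly86 there it was -0.0075 (DESeq2), -0.0075 (RLE size factors), -0.0233 (no filter on low counts), -0.0398 (replicate block), -0.0729 (total UMIs), -0.11 (sex as covariate), -0.0244 (only the 2 groups), -0.0013 (Leiden resolution 0.5), -0.001 (without cells with a UMI of another type), -0.0013 (with the shallow cluster). For Myd88 there it was -0.0714 (replicate block). In SOD1_Clec7aKO against Clec7aKO it was for Tlr13 -0.31 (total UMIs). For Spi1 there it was -0.13 (total UMIs). For Tlr3 there it was in endothelial cells -0.0131 (no filter on low counts). With 1 library left out, the range in SOD1 against nTg was -0.54 to 0.0509 for Tlr9, -0.0435 to 0.21 for Myd88 in endothelial cells, -0.0559 to 0.71 for Tlr4 in endothelial cells. With 1 library left out, the range in SOD1_Clec7aKO against SOD1 was -0.23 to 0.0489 for Tlr2, -0.0854 to 0.0935 for Tlr13, -0.18 to 0.17 for Cd14, -0.18 to 0.30 for Ly86, -0.0402 to 0.24 for Myd88. With 1 library left out, the range in Clec7aKO against nTg was -0.18 to 0.0116 for Tlr1, -0.0601 to 0.0269 for Tlr3, -0.14 to 0.41 for Tlr9, -0.0745 to 0.17 for Tlr13, -0.11 to 0.15 for Ly86, -0.0623 to 0.22 for Myd88. With 1 library left out, the range in SOD1_Clec7aKO against Clec7aKO was -0.0577 to 0.16 for Tlr3 in endothelial cells. Allowing the members among the variable genes changed nothing, since none was among them, and has no separate value. Of depth, Tlr9 rested on 19 to 172 UMIs per microglial library, where the floor is 3 UMIs.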
